A study of Mus musculus with 3 samples.

Results

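The genes described here encode nuclear subunits of the respiratory chain and of the ATP synthase in activated mouse CD4 T cells. They were taken by symbol, as every row that begins with Ndufa, Ndufb, Ndufc, Ndufs or Ndufv and a digit, with Uqcr, with Cox4 to Cox8 or with Atp5, together with Sdha, Sdhb, Sdhc and Sdhd, and without symbols ending in -ps and digits. The rule found 84 of 23282 gene rows, 37 of complex I, 4 of complex II, 8 of complex III, 18 of complex IV and 17 of complex V, on 19 chromosomes. Of these, 2 carry a family symbol without being subunits of the ATP synthase, Atp5s and Atp5sl. The cells, isolated from lymph nodes and spleens of the C57BL/6 strain, received anti-CD3 and anti-CD28 antibodies at 2 µg/ml and were kept for 72 h in 1 of 3 media. Complete medium (CM) was RPMI-1640 with 10% fetal bovine serum. Dialyzed medium (DM) was built on RPMI free of amino acids, with serum that had been dialyzed, and DM+Met was DM with 30 µM methionine. Each medium had 2 libraries, made from 500 ng of RNA with a 3′-end kit. What the 2 files of a medium are is not given in the labels, although the study describes 2 biologically independent samples, so every p-value here measures the spread between such libraries, which may be technical.

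The respiratory chain sits in the inner mitochondrial membrane. Complex I takes electrons from NADH and complex II takes them from succinate, both hand them to coenzyme Q, complex III passes them on to cytochrome c, and complex IV reduces oxygen with them. Complexes I, III and IV pump protons, and complex V, the ATP synthase, lets protons flow back and makes ATP. Most subunits are encoded in the nucleus and a few core ones in the mitochondrial genome, and naive T cells build up this machinery when they are activated. The 13 mitochondrial-genome-encoded subunits had no row under symbols beginning with mt-, so they were not analysed here.

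Depth was 8504742 to 12377285 reads per library. Levels are given as log2(CPM + 1), where CPM is a gene's reads per fixed number of library reads, with library sizes adjusted by the TMM method, as the authors deposited it. A 3′-end library samples transcripts at their 3′ ends and not along their length, so CPM can be compared between genes without a length correction. The ribosomal RNA precursor row Rn45s took 31.04% to 32.9% of reads in CM, 37.2% to 38.3% in DM and 15.5% to 20.1% in DM+Met, and moved with the medium. DM library 1 stood apart from the other 5 libraries across all genes. Values without it are given for some called genes where they differ by over 1.5 times. Other named genes moved as well. Without it the change in DM was −0.43 for Sdhb, against −0.75 with all libraries, and −0.96 for Uqcrb, against −0.58. The T cell markers Cd3d, Cd3e, Cd3g, Cd4, Cd5, Cd28 and Lck summed to 1371 to 1735 CPM in every library, with Cd4 at a log2 level of 7.35 to 8.12. Of these 7, Cd5 (1.42) and Cd3g (0.72) rose and Cd28 (−0.53) fell in DM, and Cd5 (1.13) rose in DM+Met. The 6 markers of CD8 T and NK cells summed to 67.9 and 79.3 CPM in CM, 39.8 and 40.9 in DM and 33.8 and 47.7 with methionine. Cd8a fell in both dialyzed media (−1.72 and −1.76), while the NK cell marker Klrb1c had 0 reads in both CM libraries, 17 and 22 in DM and 45 and 34 with methionine, where it passed the test (adjusted p in limma 0.0294). Klrk1 changed by 1.30 and 1.64 without passing, and Ncr1 had at most 1 read outside DM+Met and 8 and 10 there. The 5 B cell markers summed to 54.0 to 80.7 CPM, with Pax5 at 0 in all 6 libraries. The 7 myeloid markers summed to 101 to 109 CPM in CM and 109 to 126 in the dialyzed media. Lyz2 rose in DM, from 3 and 15 reads in CM to 77 and 85. The part of these other cells in the results below was not tested. In bulk RNA, fewer cells of a type and less RNA per cell cannot be told apart.

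The subunit genes were abundant in every medium, and their summed level was lower in both libraries of DM and of DM+Met than in either CM library. Their summed CPM was 12061 and 11491 in the CM libraries, 7677 and 7268 in DM and 7558 and 7271 with methionine. The sum in DM was thus 63.5% of that in CM, and that in DM+Met 63.0%, a gap several times the SD within a medium (403, 289 and 203 CPM, n = 2 each). Counted without TMM, as a share of all reads other than Rn45s, the subunit genes took 1.57% ± 0.057 (SD, n = 2) in CM, against 1.11% ± 0.050 in DM and 1.08% ± 0.021 with methionine. The sum over complex IV was lowest relative to CM, at 55.5% in DM and 56.9% in DM+Met, and that over complex I highest, at 70.9% and 67.5%. Complexes II, III and V lay between, at 67.8%, 65.9% and 61.1% of CM in DM. These differences between complexes were not tested.

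**Figure D1:**
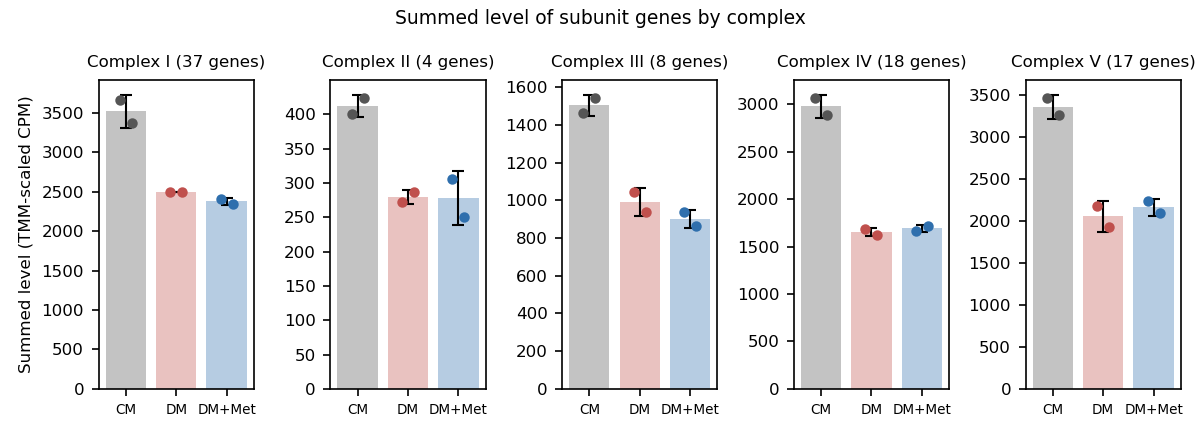
Summed level of the genes of each complex in TMM-scaled CPM (vertical axis, from 0) in the 3 media; points are the 2 libraries of a medium, bars their mean and error bars the SD. Both libraries of DM and of DM+Met lie below both CM libraries in every complex, and the 2 dialyzed media lie close to each other.

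The first question was how the genes differed between nutrient-poor and complete medium. Of the 84 genes, 81 passed the filter on low values, and 3 forms of complex IV subunits did not, Cox8b, Cox7b2 and Cox8c, with 1, 3 and 0 reads over all libraries. Between DM and CM, 33 of the 81 fell and 1 rose (limma, adjusted p below 0.05 over 12770 rows). Over all tested rows, 9.07% were lower and 7.8% higher. The fitted log2 fold change was below 0 in 72 of the 81, with a median of −0.62 against 0.07 over all rows. Both DM libraries lay below both CM libraries in 61 of 81, against 26.2% of all tested rows. Subunit genes are more abundant than most, with a median log2 level of 6.46 against 3.99, and abundant rows were called lower more often. Among rows with a mean log2 level of at least 5, a bound chosen after the data were seen, 31 of 70 subunit genes and 15.7% of all rows were lower. The number called depended on how the spread was estimated. It was 11 when only CM and DM entered the fit and 7 without an intensity trend. It was 6 without CM library 1, 9 without CM library 2 or either DM+Met library, and 14 without either DM library, while the median stayed between −0.72 and −0.56.

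**Figure D2:**
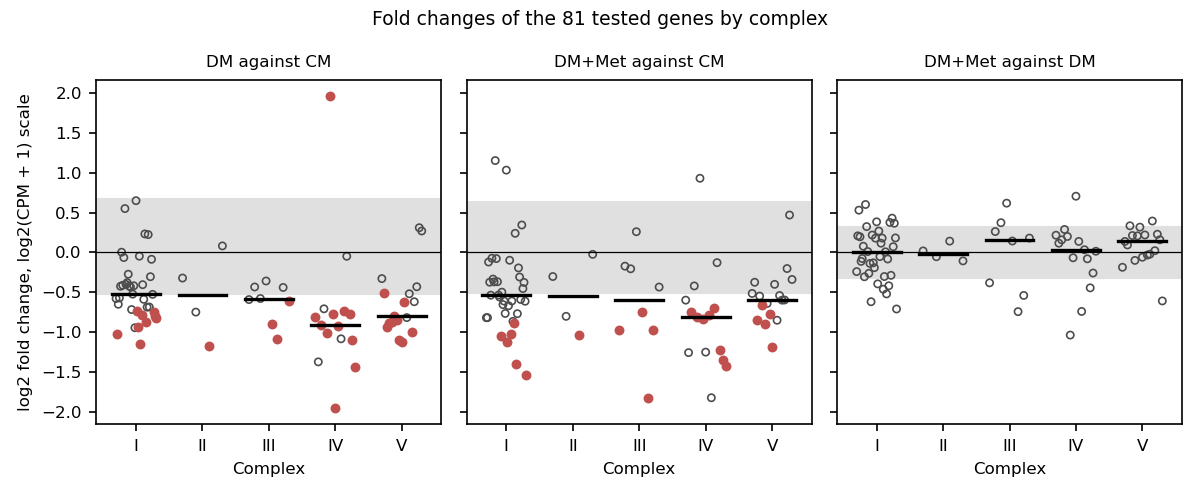
Fitted log2 fold change (vertical axis, log2(CPM + 1) scale) of each of the 81 tested genes by complex in the 3 comparisons. Filled points passed the limma test at an adjusted p below 0.05, open points did not, thick bars are medians and the grey band spans the middle quartiles of all 12770 tested rows. The medians of all 5 complexes lie below 0 in the left and middle panels, and between −0.02 and 0.16 in DM+Met against DM.

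Between DM+Met and CM, 24 of the 81 fell and 0 rose, against 8.36% lower and 6.92% higher over all rows. Here 52 of the 81 (64.2%) had an unadjusted p in limma below 0.05. Over all tested rows this share was 30.3%, and over those of at least level 5 it was 44.6%. limma-voom called 27, all lower. The median was −0.60, against 0.06 over all rows, and 74 of 81 estimates were below 0. Both DM+Met libraries lay below both CM libraries in 65 of 81, against 28.7% of all tested rows. Among rows with a mean log2 level of at least 5, all 24 calls remained and 14.9% of all rows were lower. Scaling moved this comparison. Under library totals, where Rn45s counts, the median over all rows became 0.41 and that of the subunit genes −0.21, so that the subunit genes stood 0.62 below all rows, as against 0.66 under TMM. Under that scaling 10 were called lower and 1 higher. Without CM library 1 the count was 7, without CM library 2 it was 11, and without DM+Met library 1 or 2 it was 5 or 3. Both comparisons share the CM libraries, so their likeness is no independent support.

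The second question was whether methionine changed these genes in DM. Between DM+Met and DM, 0 of 81 were called by limma and 0 by limma-voom. An unadjusted p in limma below 0.05 was found for 4 (4.94%), against 9.69% of all tested rows. Over all rows, 0.0157% were called lower and 0.0392% higher. The median was 0.03, against 0.01 over all rows, and 35 of the 81 estimates were below 0. Under library totals, where Rn45s counts, these medians became 0.38 and 0.34. Both DM+Met libraries lay above both DM libraries in 17 and below them in 17, against 20.4% and 20.6% of all tested rows. The 4 genes were Uqcrfs1 (−0.74, SE 0.22), Ndufv3 (−0.71, SE 0.24), Uqcrh (−0.54, SE 0.14) and Uqcrc1 (0.62, SE 0.20), with adjusted p-values in limma of 0.304 to 0.400. The median standard error of a fold change was 0.24. Changes of a single gene near that size were not detectable with 2 libraries per medium. Larger ones, such as those of Uqcrfs1 and Uqcrh, did not pass either.

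**Figure D3:**
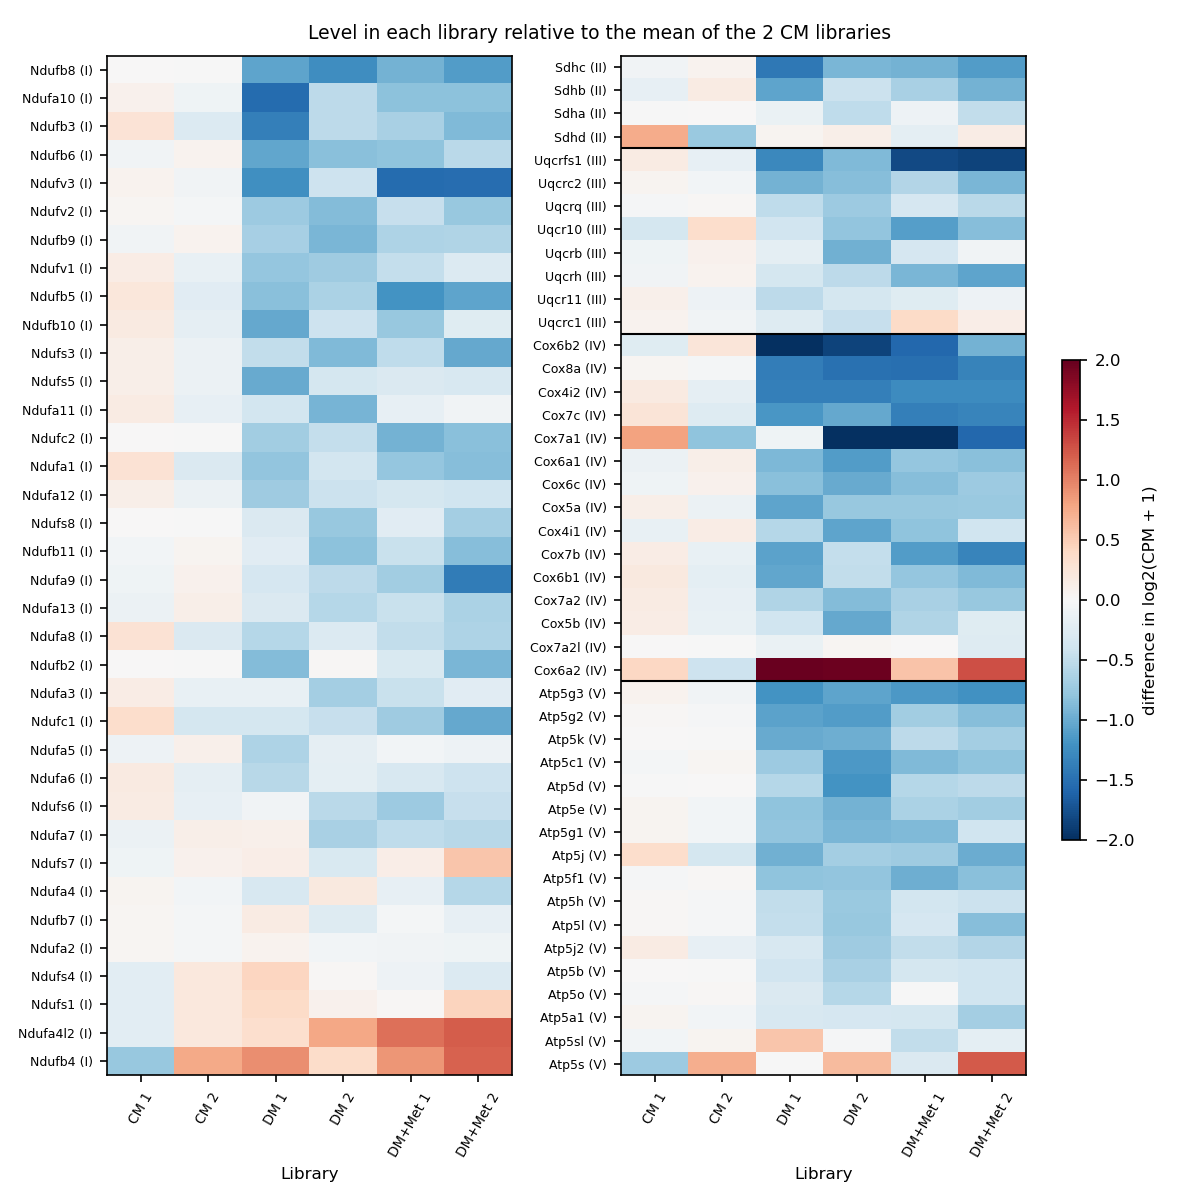
Level of 80 of the 81 tested genes in each library minus the mean of its CM libraries, in log2(CPM + 1) units (colour, ends of the scale at −2 and 2); rows are genes with their complex in parentheses, sorted within each complex by fold change in DM, and columns are the 6 libraries. Most rows are blue in all 4 libraries of the dialyzed media, and Cox6a2, Ndufa4l2, Ndufb4 and Ndufs1 are among the few that are not.

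Sequence near the start of transcription was read for the genes that moved together. The RefSeq promoter table of GRCm38.p6, 250 bases before to 50 after each start, held 69 of the 84 genes. It was searched on both strands for the letters GCGCATGC (part of the site of NRF1, a regulator of nuclear mitochondrial genes), CCGGAAG (ETS factors such as GABP) and AAGATGGC (YY1). The 5 genes below are those with the greatest called fall in DM among those with such letters between 100 bases before and 10 after the start. They are shown 5′ to 3′ on the strand of the gene, with the matching letters in capitals.
Cox8a (chr19:7217607-7217716, minus strand): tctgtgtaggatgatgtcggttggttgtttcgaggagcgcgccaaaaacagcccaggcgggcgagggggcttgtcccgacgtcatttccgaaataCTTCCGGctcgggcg
Atp5g2 (chr15:102671038-102671147, minus strand): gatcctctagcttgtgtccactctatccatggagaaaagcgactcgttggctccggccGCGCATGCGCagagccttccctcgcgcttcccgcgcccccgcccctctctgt
Cox6a1 (chr5:115348949-115349058, minus strand): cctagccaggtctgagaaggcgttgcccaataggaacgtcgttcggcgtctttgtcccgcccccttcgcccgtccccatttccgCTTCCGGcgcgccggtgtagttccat
Atp5k (chr5:108434390-108434499, minus strand): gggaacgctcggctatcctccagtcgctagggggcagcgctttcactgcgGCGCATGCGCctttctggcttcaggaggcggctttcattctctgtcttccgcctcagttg
Atp5f1 (chr3:105959254-105959363, minus strand): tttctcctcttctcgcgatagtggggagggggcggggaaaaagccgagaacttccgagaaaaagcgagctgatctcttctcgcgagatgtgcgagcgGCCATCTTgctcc

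The capitals mark CCGGAAG on the opposite strand in Cox8a and Cox6a1, from 5 and 16 bases before the start, and AAGATGGC on the opposite strand in Atp5f1, from 3 bases before it. In Atp5g2 and Atp5k they mark GCGCATGC on both strands, overlapping, from 42 and 50 bases before the start. The NRF1 letters were in 14.5% of the 69 promoters, against 6.0% of 9626 promoters of tested rows and 3.0% of all 27025. The ETS letters were in 23.2%, 20.3% and 9.9%, and the YY1 letters in 15.9%, 5.4% and 3.2%. Of 26 genes called lower in DM, 10 held at least 1 of the 3 (38.5%), and of 41 other tested genes, 21 did (51.2%). A match describes letters and not binding.

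In complex I, 9 of 37 genes fell in DM (24.3%) and 6 in DM+Met (16.2%), with medians of −0.52 and −0.54. Of all rows of at least level 5, 15.7% were lower in DM. The share in DM+Met lay near the 14.9% of all rows of at least level 5 that were lower there, so this count is no result about the complex. Ndufb8, an accessory subunit of the distal membrane arm, had log2 levels of 7.29 and 7.28 in CM, 6.23 and 6.05 in DM and 6.34 and 6.17 with methionine. All 4 libraries of the dialyzed media lay more than 0.9 below CM. It fell by 1.14 in DM (SE 0.18, adjusted p in limma 0.00367), the greatest called fall of the complex, and by 1.03 in DM+Met (SE 0.18, adjusted p 0.00553). Ndufv3, a small subunit of the NADH-oxidizing N module, read 8.04 and 7.89 in CM, 6.74 and 7.55 in DM and 6.43 and 6.45 with methionine. Its DM libraries were spread and its libraries with methionine were not. It fell by 0.82 in DM (adjusted p in limma 0.0445) and by 1.53 in DM+Met (adjusted p 0.00287), and without DM library 1 its value in DM was −0.42.

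By position in the complex, 3 of 10 genes of the N module fell in DM (Ndufv1, Ndufv2 and Ndufv3), 1 of 9 of the proximal membrane arm (Ndufa10) and 4 of 10 of the distal arm (Ndufb5, Ndufb6, Ndufb8 and Ndufb9). These were 30.0%, 11.1% and 40.0% of the genes, against 15.7% of all rows of at least level 5. The share of the proximal arm lay below that of all such rows, and differences between positions were not tested. Ndufa10 had 5.61 and 6.62 in its DM libraries, and its change of −1.03 became −0.52 without DM library 1. In DM+Met, Ndufb5 (−1.12), Ndufa9 (−1.05, and −0.70 without DM+Met library 2) and Ndufc2 (−0.89) were also lower than in CM. Other genes of the same complex did not pass the test. Ndufs1, the largest core subunit, read 5.25 and 5.67 in CM, 5.84 and 5.55 in DM and 5.49 and 5.91 with methionine, and the media overlapped. Its change in DM was 0.23 (SE 0.27). Ndufa2 stayed within 7.56 to 7.71 in all 6 libraries, and Ndufb7 within 5.85 to 6.27. Ndufb4 had 108 and 290 reads in CM against 412 and 317 in DM and 485 and 595 with methionine. The spread between its CM libraries was wider than its change in DM (0.65, SE 0.45). In DM+Met both libraries lay above CM, and the change of 1.03 did not pass (adjusted p in limma 0.156).

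The rule places Ndufa4 and Ndufa4l2 with complex I by name, although Ndufa4 is now known as a subunit of complex IV. Ndufa4 did not pass in either comparison (−0.06 and −0.37, SE 0.30). Ndufa4l2, a related protein induced by hypoxia, had 30 and 38 reads in CM against 53 and 87 in DM and 118 and 128 with methionine. The 3 media did not overlap. Its fold changes of 0.55 and 1.15 against CM did not pass (SE 0.51, adjusted p in limma 0.494 and 0.158). It overlaps Shmt2 on the other strand, which had 888 to 1544 reads, and since the use of strand in counting is not given, reads of the 2 genes cannot be told apart.

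In complex II, 1 of 4 genes fell, the same gene in DM and in DM+Met. Of all rows of at least level 5, 15.7% and 14.9% were lower. With only 4 genes, this count is no result about the complex. Sdhc, which anchors the enzyme in the membrane, had log2 levels of 6.11 and 6.25 in CM, 4.75 and 5.26 in DM and 5.24 and 5.07 with methionine. Its dialyzed libraries all lay below CM. It fell by 1.17 in DM (SE 0.26, adjusted p in limma 0.0156) and by 1.03 in DM+Met (adjusted p 0.0273). Sdhb, the iron-sulfur subunit, changed by −0.75 and −0.80 without passing (adjusted p in limma 0.0630 and 0.0533). Sdha, the flavoprotein, changed by −0.32 and −0.30, and did not pass (SE 0.20). Sdhd, the other anchor, had 5.03 and 3.56 in its CM libraries, a wider gap than in the other media, and changed by 0.08 (SE 0.47).

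In complex III, all 8 estimates in DM were below 0, against 54.6% of all rows of at least level 5. Of the 8 genes, 3 fell in DM and 4 in DM+Met. Of all rows of at least level 5, 15.7% and 14.9% were lower. Uqcrfs1, the Rieske iron-sulfur protein, had log2 levels of 7.33 and 7.00 in CM, 5.87 and 6.28 in DM and 5.36 and 5.31 with methionine. The 3 media did not overlap, with DM+Met lowest. It fell by 1.09 in DM (SE 0.22, adjusted p in limma 0.0109) and by 1.83 in DM+Met (SE 0.22, adjusted p 7.64e-04), the greatest called fall of any subunit gene in that comparison. Uqcrc2, a core protein without a redox group, fell by 0.89 and 0.75. Its partner Uqcrc1 read 6.45 and 6.31 in CM, 6.12 and 5.92 in DM and 6.77 and 6.51 with methionine. It did not pass in either comparison (−0.36 and 0.26, SE 0.20). Uqcrh, the hinge protein and the most abundant subunit gene, read 9.05 and 9.19 in CM, 8.77 and 8.59 in DM and 8.21 and 8.07 with methionine. It changed by −0.44 in DM (adjusted p in limma 0.0658) and fell by 0.98 in DM+Met (adjusted p 0.00203). Uqcrq passed in DM (−0.61, against −0.43 in DM+Met) and Uqcrb in neither (−0.58 and −0.20). Uqcr10 passed in DM+Met (−0.97, against −0.59 in DM), and without CM library 2 its value was −0.62.

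In complex IV, 10 of 15 tested genes fell in DM (66.7%) and 8 in DM+Met (53.3%). The shares over all rows of at least level 5 were 15.7% and 14.9%. The common forms of its subunits moved together, with 9 of 10 lower in DM and 8 of 10 in DM+Met. All 10 had both libraries of either dialyzed medium below both CM libraries, against 26.2% of all tested rows in DM and 28.7% in DM+Met. Cox8a, the ubiquitous form of the smallest subunit, had log2 levels of 8.92 and 8.85 in CM, 7.50 and 7.38 in DM and 7.37 and 7.54 with methionine. The gap of more than 1.3 to CM was many times the spread within a medium. It fell by 1.44 in DM (SE 0.15, adjusted p in limma 4.57e-04) and by 1.43 in DM+Met (adjusted p 3.51e-04), and differed by 0.01 between DM+Met and DM. Cox7c read 7.98 and 7.46 in CM, 6.56 and 6.70 in DM and 6.35 and 6.40 with methionine, and fell by 1.09 and 1.35. Cox6a1 read 8.49 and 8.74 in CM, 7.71 and 7.50 in DM and 7.84 and 7.78 with methionine, and fell by 1.01 and 0.81. Among the other common forms, Cox4i1, an early partner of the catalytic core in assembly, fell by 0.81 in DM and changed by −0.60 in DM+Met. Cox5a and Cox6c fell by 0.91 and 0.93 in DM and by 0.75 and 0.79 in DM+Met, Cox7a2 by 0.74 and 0.70, Cox6b1 by 0.77 and 0.83 and Cox7b by 0.78 and 1.22. Without DM library 1 the values in DM were −0.49 for Cox6b1 and −0.48 for Cox7b. Cox5b did not pass (−0.71 and −0.42). In contrast to these values, Cox7a2l, a relative of Cox7a2, stayed within 7.67 to 7.97 in all 6 libraries (−0.05 in DM, SE 0.16).

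The forms of complex IV subunits that mark particular tissues were scarce. Cox6b2, the form of testis, had log2 levels of 4.44 and 4.93 in CM, 2.63 and 2.83 in DM and 3.12 and 3.75 with methionine. It was 7.45% and 13.2% of the summed CPM of Cox6b1 and Cox6b2 in CM, 4.60% and 3.68% in DM, and 5.60% and 9.35% with methionine, which overlapped CM. It fell by 1.96 in DM (SE 0.45, adjusted p in limma 0.0174), the greatest called fall of any subunit gene there, and changed by −1.25 in DM+Met (adjusted p 0.0910). Leaving out any 1 library ended its call. Cox6a2, the form of heart and skeletal muscle, had 17 and 5 reads in CM against 75 and 85 in DM and 27 and 52 with methionine. It was the 1 subunit gene that rose, by 1.97 in DM (SE 0.59, adjusted p in limma 0.0481). The call was kept in 4 of 10 other settings and in 0 of the 6 fits without 1 library, with adjusted p-values in limma of up to 0.14 over the 10. It overlaps Itgad on the other strand, which had at most 7 reads. Cox4i2, the form of lung, had 17 and 10 reads in CM, 0 in both DM libraries and 1 in each DM+Met library. Against the 3 reads over both libraries that a count of 0 allows, it was at least 11.5-fold lower in DM, and it did not pass the test (adjusted p in limma 0.102). Cox7a1, another muscle form, had 56 and 11 reads in CM against 29 and 0 in DM and 0 and 5 with methionine, and did not pass.

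**Figure D4:**
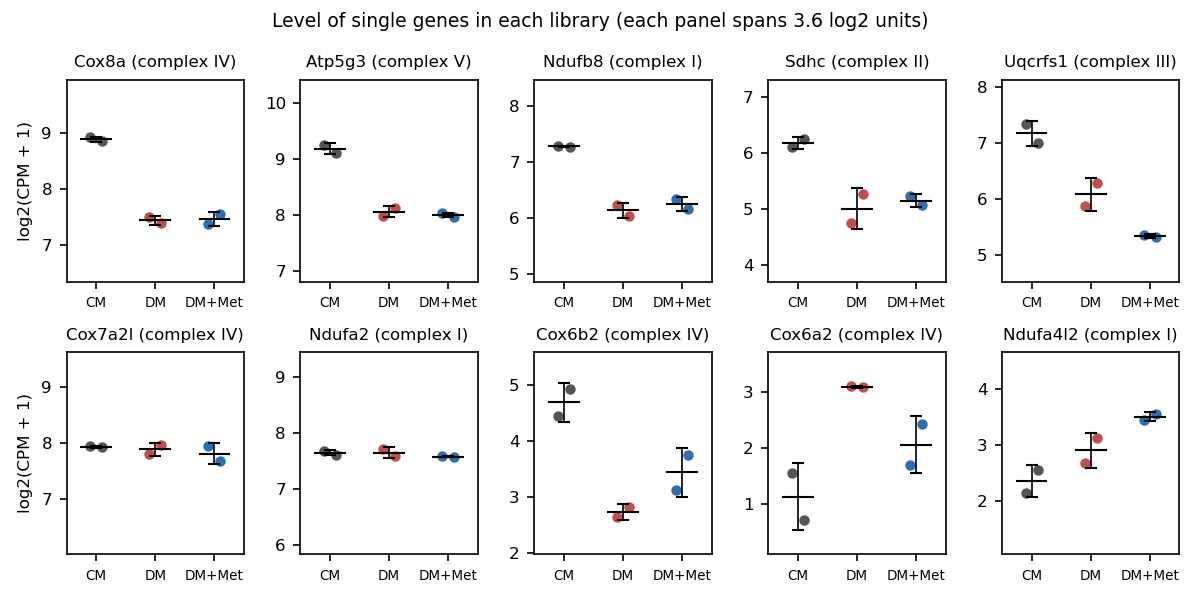
Level of 10 genes in each library, as log2(CPM + 1) on vertical axes that all span 3.6 units; points are the libraries, horizontal lines the mean of a medium and error bars the SD (n = 2). Cox8a, Atp5g3, Ndufb8, Sdhc and Uqcrfs1 are lower in all 4 dialyzed libraries than in CM, Cox7a2l and Ndufa2 stay level, and Cox6b2, Cox6a2 and Ndufa4l2 are scarce genes that move in different ways.

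In complex V, 10 of 17 genes fell in DM (58.8%) and 5 in DM+Met (29.4%). Of all rows of at least level 5, 15.7% and 14.9% were lower. The 3 genes of the membrane-embedded c ring, Atp5g1, Atp5g2 and Atp5g3, encode the same mature protein and differ in the leader that is cut off on import. Atp5g3 had log2 levels of 9.25 and 9.11 in CM, 7.99 and 8.13 in DM and 8.03 and 7.97 with methionine. It fell by 1.12 in DM (SE 0.14, adjusted p in limma 0.00128) and by 1.18 in DM+Met (adjusted p 7.02e-04). Atp5g2 read 7.35 and 7.29 in CM, 6.24 and 6.21 in DM and 6.62 and 6.46 with methionine, and fell by 1.09 and 0.78. Atp5g1 read 6.03 and 5.91 in CM, 5.18 and 5.06 in DM and 5.09 and 5.57 with methionine, and fell by 0.85 in DM. The shares of the 3 genes moved less than their sum. The sum was 833 and 767 CPM in CM, 362 and 384 in DM and 390 and 383 with methionine, while Atp5g3 held 65.1% to 72.9% of it in every library.

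In the catalytic F1 head, Atp5c1, the central shaft, fell by 0.94 in DM and 0.85 in DM+Met, Atp5e by 0.88 and 0.67, and Atp5d by 0.88 in DM (−0.57 without DM library 2, and −0.55 in DM+Met). The genes of the large F1 subunits moved by smaller amounts. Atp5b, the catalytic β subunit, read 8.72 and 8.69 in CM, 8.32 and 8.06 in DM and 8.36 and 8.30 with methionine, and fell by 0.51 in DM (adjusted p in limma 0.0412). Atp5a1, the α subunit, changed by −0.33 and −0.51 and did not pass. In the peripheral stalk, Atp5f1 fell by 0.80 and 0.90 and Atp5h by 0.62 in DM, and of the subunits at the membrane Atp5k fell by 0.99 in DM. Atp5s and Atp5sl, which are no subunits, changed by 0.31 and 0.27 in DM. Without them 79 genes remained, with the same calls and a median of −0.65.

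Of all these calls, 5 in DM held in each of the 6 fits that left out 1 library (Ndufb8, Cox8a, Cox6a1, Atp5g2 and Atp5g3), and 3 in DM+Met did (Uqcrfs1, Cox8a and Atp5g3). In none of those 6 fits were 13 of the 34 calls in DM made, among them Cox6b2, Cox6a2, Cox4i1, Cox7a2, Cox6b1, Cox7b, Uqcrq and Atp5g1, nor 4 of the 24 in DM+Met (Ndufa9, Cox6b1, Uqcrc2 and Cox7a2). Ndufv1, Ndufv2, Ndufb5 and Ndufb6 of complex I were also among the 13 in DM. Reads of some genes may be shared with near-identical copies. Of the 84, 29 shared at least 1 stretch of 50 bases within the last 300 of a transcript with another gene in GENCODE vM21. In 5, Atp5h, Cox7c, Atp5g2, Ndufs3 and Atp5l, at least 50% of the stretches were shared, most with predicted genes, so their levels are uncertain. Cox8a, Atp5g3, Uqcrfs1, Sdhc and Cox6b2 shared none.

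Genes of the same pathway outside the rule were followed by lists. A list of 5 held further subunits and Atpif1, the inhibitor of the ATP synthase. All 5 estimates in DM were below 0, and Atpif1 (−1.15) and Usmg5 (−0.98) fell. In either dialyzed medium 40.0% of the list was called lower, against 9.07% of all rows in DM and 8.36% in DM+Met. In DM+Met, Atpif1 (−1.24) and 2010107E04Rik (−0.73) fell, while Cyc1, which encodes cytochrome c1 (−0.45 and −0.13), and Ndufab1 (−1.13 and −1.07) passed in neither. Of 13 tested carriers and other enzymes of electron entry, 7 fell in DM and 7 in DM+Met, against 9.07% and 8.36% of all rows, with medians of −0.84 and −0.73. They included the ADP/ATP carriers Slc25a4 (−1.04 and −1.66) and Slc25a5 (−1.61 and −1.17) and the phosphate carrier Slc25a3 (−0.74 and −0.73), which supply the ATP synthase. Slc25a4 had log2 levels of 7.10 and 7.04 in CM and 5.60 and 6.47 in DM, with the smaller gap in DM library 2. Of 14 citric acid cycle genes, 5 fell in DM and 4 in DM+Met (35.7% and 28.6%, against 9.07% and 8.36% of all rows). Among them were Cs, which encodes citrate synthase (−1.10 and −1.08), and Mdh2 (−0.75 and −0.73).

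The other lists were divided or did not move. Of 46 assembly factors, 3 rose and 3 fell in DM, with a median of −0.20, and 1 rose in DM+Met (Coa7, 1.70), with a median of 0.07. These shares were below those over all rows, of which 9.07% were lower and 7.8% higher in DM. limma-voom did not call Coa7 in either comparison, and in DM+Met it called Cox17 alone, which was lower (−1.12, adjusted p in limma 0.0563). Those that rose were Sdhaf1 (1.22) and Sdhaf4 (1.48), which help to build complex II, and Coa7 (1.65), while Cox14 (−1.03), Cox15 (−2.86) and Cox19 (−1.79) fell. Cox15, which makes heme A, had 249 and 192 reads in CM against 4 and 104 in DM and 198 and 239 with methionine, and without DM library 1 its change was −1.43. Among 14 tested genes of cytochrome c and coenzyme Q synthesis, Cycs, which encodes cytochrome c (−1.12), and Coq7 (−1.82) fell and Pdss1 (1.95) rose in DM, of which limma-voom called Cycs alone. With 14.3% of this list lower, against 9.07% of all rows, these counts are no result about the list. Of 20 regulators of mitochondrial genes, 0 were called in DM by limma and 0 by limma-voom. Only 1 had an unadjusted p in limma below 0.05, against 32.7% of all tested rows. In DM+Met, Nrf1 rose by 1.20 (adjusted p in limma 0.0474), while limma-voom called 0 of the 20, and Tfam, which packages mitochondrial DNA, changed by −0.07 and −0.65. Between DM+Met and DM, 0 of the 112 tested genes of these lists were called by limma and 0 by limma-voom. Of them 5 had an unadjusted p in limma below 0.05, against 9.69% of all tested rows.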

How the data were processed

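RNA of 3 media was profiled in 6 libraries, 2 per medium. The authors scaled CPM by TMM, added 1 and deposited the result on a log2 scale, to 3 decimals. The submitters' processing notes name Bowtie2, bedtools and mm10 without roles or versions. Which annotation was used, and whether counting used strand, is not given in the sources used here. Reads behind each value were recovered from the equal steps of the values, and at up to 300 reads at least 99.776% lay within 0.1 of a whole number. A floor of 3 reads covers counting error only.

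The subunit genes, the gene lists and the tests were chosen with earlier results of these data known. Rows were tested when 2 libraries reached 0.946 CPM and the total 15 reads (12770 rows). The log2 values of all 3 media entered 1 limma fit (limma 3.58.1, R 4.3.3, an empirical Bayes variance with an intensity trend and 6.87 prior degrees of freedom), without covariates, two-sided, with Benjamini-Hochberg adjustment over all rows and a threshold of 0.05. The fit was tested on simulated data. The added 1 makes log2 fold changes of genes with few reads too small. limma-voom used the recovered reads.

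Named genes were, for each comparison, all called subunit genes if at most 10, and otherwise the 8 with the greatest called rise and the 8 with the greatest called fall whose libraries did not overlap. To these came a fixed set of core and paired subunits, and from each list at most 4 called genes. Uqcrq, Ndufb7, Ndufb4 and others outside this rule were chosen after their values were seen, as was the level bound of 5. A gene of complex I counted in the totals is not reported singly here. Gene positions, shared sequence and overlaps came from GENCODE vM21 (GRCm38), and promoters from RefSeq (GRCm38.p6). File numbers did not pair the libraries, with correlations of −0.03 to 0.01 between same-numbered libraries.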

Additional observations from a re-analysis of the deposited data

How the results depend on the processing

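The subunit genes had a negative median against CM under all 19 alternatives in both dialyzed media. The median relative to that of all tested rows stayed between −0.77 and −0.57 in DM and between −0.71 and −0.59 in DM+Met. The number called was less stable, and where no cause is named the cause was not tested. In DM against CM (34 called) it was 21 under library totals without Rn45s (median −0.47), 11 when CM and DM were fitted alone, with fewer libraries behind the variance, and 7 without an intensity trend. In DM+Met against CM (24 called) it was 11 under library totals (median −0.21) and 4 without an intensity trend, and the median under library totals without Rn45s was −0.48. In DM+Met against DM it was 0 under all 19, and the median under library totals was 0.38, where that of all rows was 0.34. Leaving out 1 library gave 6 to 14 called in DM and 3 to 22 in DM+Met, with medians of −0.72 to −0.56 and −0.67 to −0.56. A block for the file number gave 27 and 25, and since the numbers did not pair the libraries it is given here only. No named subunit gene that was called changed sign. Of the named genes that were not called, 49 values in 3 comparisons changed sign under an alternative, 33 of them in DM+Met against DM. Removing genes with a -ps copy by symbol could not be run because the rule already leaves such rows out. With 2 libraries per medium, changes near the standard errors given were not detectable, and some well above them did not pass either.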
